A study of Mus musculus with 8 samples.

Results

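The genes described here are the mouse heat shock proteins, the heat shock transcription factors and the DnaJ co-chaperones. They were chosen by symbol alone: every gene whose symbol begins with Hspa, Hspb, Hspd, Hspe, Hsph, Hsp90, Hsf and a digit, or Dnaja, Dnajb or Dnajc and a digit, with symbols marked -ps (pseudogenes) left out. This gave 81 of the 55414 genes in the table of counts. By symbol they are 3 HSP90, 14 HSP70 and HSP110, 8 small HSP and 3 HSP60 and HSP10 genes, 5 heat shock factors, 4 DNAJA, 13 DNAJB and 28 DNAJC genes, and 3 genes named for binding a chaperone or a factor (Hspbp1, Hspbap1 and Hsf2bp). The study measured them by RNA sequencing in 8 libraries from mouse colon, 4 from Emb knockdown mice and 4 from WT mice, all aged 4 weeks. Cells were freed from the colon with enzymes, stained for the surface antigens CD24 and CD56, sorted as enteric neurons, which make up the nervous system of the gut, and lysed in tubes of about 250 cells. Emb encodes embigin, a membrane glycoprotein that partners with monocarboxylate transporters. The sources used here do not say how the knockdown was made, in which cells it acts or which strain was used, and the labels do not tie each tube to 1 mouse. The p-values below therefore measure the spread between these libraries, which may be technical in part.

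Heat shock proteins are molecular chaperones: they bind proteins that are not fully folded, keep them from aggregating and help them reach or regain their shape. HSP70 proteins do this in cycles of ATP hydrolysis that DnaJ proteins start and HSP110 proteins help to end by nucleotide exchange, and they pass some clients on to HSP90, which matures kinases and steroid receptors. Small HSPs hold unfolded proteins without using ATP, and HSP60 with its lid HSP10 folds proteins inside mitochondria. In stressed cells heat shock factor 1 switches on many of these genes, while the chaperones of the endoplasmic reticulum are switched on by the unfolded protein response. Neurons are long-lived cells, and a DnaJ protein of their synaptic vesicles, encoded by Dnajc5, protects the release machinery.

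The Emb knockdown and WT libraries differed in depth and make-up. Total counts ran from 2024372 to 2712754 in Emb knockdown and from 698930 to 954191 in WT, and Rn18s-rs5 (ribosomal RNA) took 36.5% ± 5.53 of the counts in Emb knockdown and 8.72% ± 4.00 in WT (SD, n = 4 each). Emb itself had 5, 25, 3 and 5 counts in Emb knockdown replicates 1 to 4 and 4, 6, 22 and 16 in WT replicates 1 to 4, and its log2 fold change was -1.24 ± 0.82 (SE; edgeR quasi-likelihood adjusted p = 0.529), so a decrease was not detected at this depth. Summed over 12 neuron markers, the libraries held 248 to 531 CPM (counts scaled to a common library size) in Emb knockdown and 268 to 446 in WT. Transcripts of the labelled cell type were thus present, beside those of other cell types. The sum of 10 macrophage and dendritic markers was 4490 to 7420 CPM in Emb knockdown and 1610 to 4050 CPM in WT, with no overlap, and that of 16 immediate early genes, which tissue dissociation can induce, was 8840 to 36500 and 1550 to 6990 CPM, also with no overlap. Fibroblast markers (5 genes) summed to 233 to 432 CPM in Emb knockdown and 61.8 to 207 CPM in WT, again with no overlap. Those of epithelium (53.9 to 174 and 135 to 162 CPM), smooth muscle (24.9 to 48.2 and 30.9 to 73.6 CPM) and endothelium (153 to 1390 and 354 to 2000 CPM) overlapped between Emb knockdown and WT. No marker of these lists was at 0 in all libraries of a genotype. A sum need not hold for each marker. Most of the macrophage and dendritic sum in Emb knockdown was C1qa (5304 to 7855 counts, against 671 to 1809 in WT). Cx3cr1 had 477, 1287, 13 and 158 counts in Emb knockdown and 1196, 778, 1177 and 909 in WT. The fibroblast marker Pdgfra had 23, 42, 32 and 37, and 5, 12, 48 and 48. By unadjusted edgeR p under 0.05, 6 of 9 tested macrophage and 1 of 4 fibroblast markers were higher in Emb knockdown, and 0 lower. The part these differences have in the results below was not tested. In such libraries, fewer cells of a type and less RNA per cell cannot be told apart.

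Most of the 81 genes were counted few times. In the libraries 77 to 80 of them had at least 1 count in Emb knockdown and 63 to 74 in WT. Of all 81, 48 passed the filter on low counts and were tested, and 33 did not. To pass, a gene needed 6.71 CPM in at least 4 libraries. Of the 48 that passed, 14 reached that level in more Emb knockdown than WT libraries and 9 in more WT libraries. The 33 that did not pass are not part of this split. The level per exonic kilobase was set against that of 1504 olfactory, vomeronasal and trace amine receptor genes, which gut cells are not known to use broadly, as a measure of background. The median of the 81 genes lay at 2.56 ± 0.739 times this background in Emb knockdown and 1.27 ± 0.409 times in WT (SD, n = 4 each), and the median of all protein-coding genes at 1.57 ± 0.144 and 0.933 ± 0.192 times. More than 5 times the background in all 4 libraries of a genotype was reached by 6 of the 81 genes in Emb knockdown, 7.41% (Hsp90ab1, Hspa5, Dnajc25, Dnajc3, Dnajc8 and Dnajc7), against 4.74% of protein-coding genes. In WT it was reached by 2 of the 81, 2.47% (Dnajc25 and Hspb3), against 2.08%.

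By median level per kilobase over the 4 libraries, the order of the genes differed between the genotypes. In Emb knockdown the highest were Hsp90ab1 (32.4 to 464 times the background), Hsp90aa1 (4.07 to 144 times), Hsp90b1 (3.23 to 132 times) and Hspa5 (16.5 to 123 times), whose ranges overlap. In WT the highest were Dnajc25 (13.8 to 25.6 times), Hsp90ab1 (0.935 to 31.3 times) and Hspb3 (5.09 to 25.2 times), which do not differ beyond their spread either. Hspa8, the HSP70 that most cells make at all times, lay at 0.714 to 47.1 times in Emb knockdown and 0.435 to 41.4 times in WT.

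**Figure D1:**
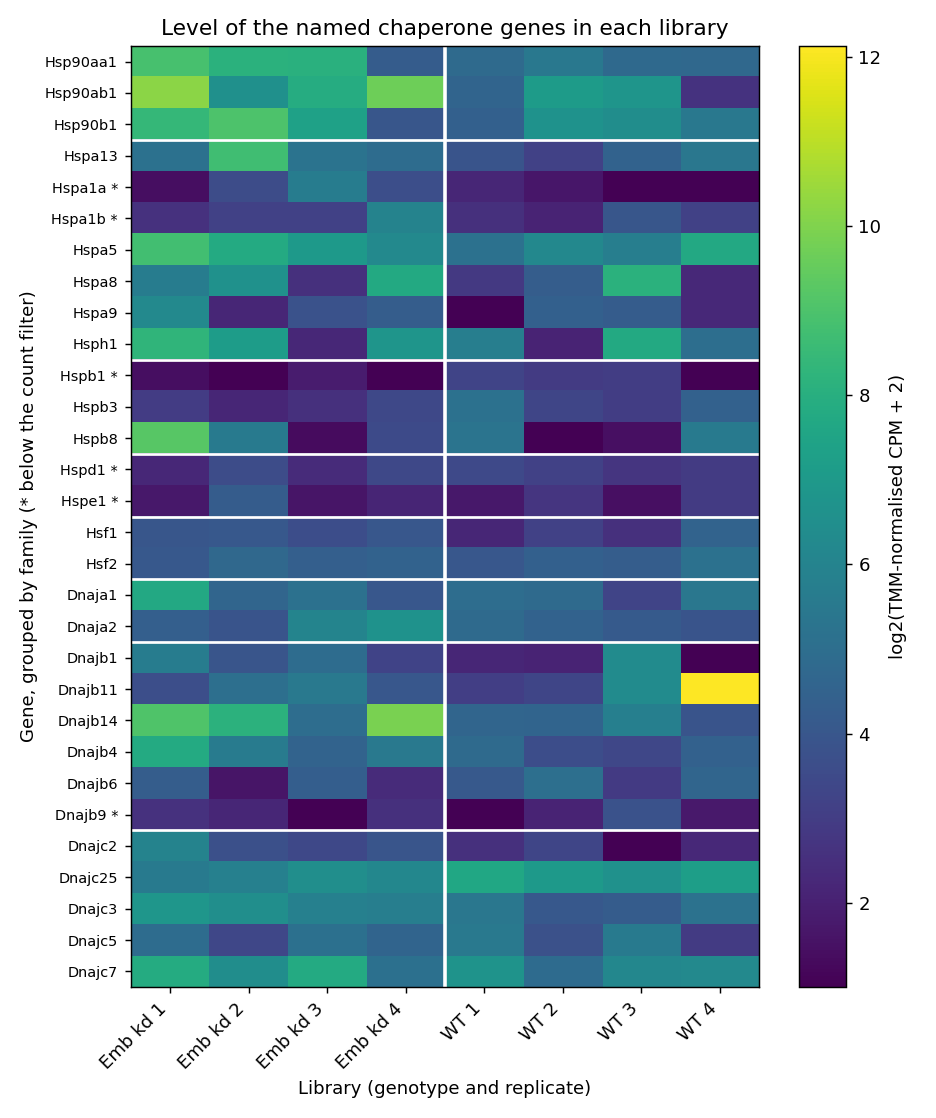
Level of the 30 named genes (rows, grouped by family; an asterisk marks genes below the count filter) in each library (columns, Emb knockdown replicates 1 to 4 left of WT replicates 1 to 4), as log2 of TMM-normalised CPM plus 2. Lighter colours are higher: the HSP90 rows are light in most Emb knockdown libraries, Dnajb11 is brightest in WT replicate 4 at 4492 CPM, and Hspa8 and Hsph1 vary within both genotypes.

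Between the genotypes, 0 of the 48 tested genes passed an adjusted p of 0.05 by edgeR, where 0.0% of the 11353 genes tested did. With an unadjusted p under 0.05 there were 7 genes with more in Emb knockdown, against 8.64% of all genes tested, and 2 with less, against 4.64%. The 7 were Hsp90aa1, Hsp90ab1, Hspa13, Dnajb4, Dnajb14, Dnajc2 and Dnajc3, and the 2 were Hspb3 and Dnajb11. The DESeq2 test on the same counts called 5 of them at an adjusted p under 0.05, Dnajb14 (log2 fold change 4.00, adjusted p = 0.000535), Hsp90aa1 (3.11, 0.00389), Hsp90ab1 (3.09, 0.0290), Dnajb4 (2.40, 0.0325) and Dnajc2 (2.76, 0.0451), where it called 6.02% of all genes tested; limma voom called 0. The libraries of the genotypes did not overlap in 2 genes that were higher in Emb knockdown, Dnajc2 and Dnajc3, against 4.03% of all genes, and in 1 that was lower, Dnajc25, against 4.25%. The lack of overlap fixes the exact two-sided permutation p of these 3 genes at 0.02857, the smallest that 4 against 4 allows. Over log2 CPM, the exact permutation p was 0.0571 for Dnajb14 and Dnajb4, 0.0857 for Hsp90ab1, 0.114 for Hspa13 and Hspb3, 0.143 for Hsp90aa1 and 0.600 for Dnajb11.

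The estimates leaned towards Emb knockdown. They were above 0 in 36 of the 48 genes, 75.0%, against 51.6% of the 11353 genes, and their median log2 fold change was 0.92, against 0.04. With no filter, so that all 81 entered, 57 were above 0 and the median was 0.88, against 0.25 over 48530 genes. The lean was unequal between families: the median was 3.08 over the 3 HSP90 genes, 1.03 over 11 HSP70 and HSP110 genes, 0.59 over 8 DNAJB and 0.56 over 17 DNAJC genes. These are descriptions of a list, not tests of it.

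**Figure D2:**
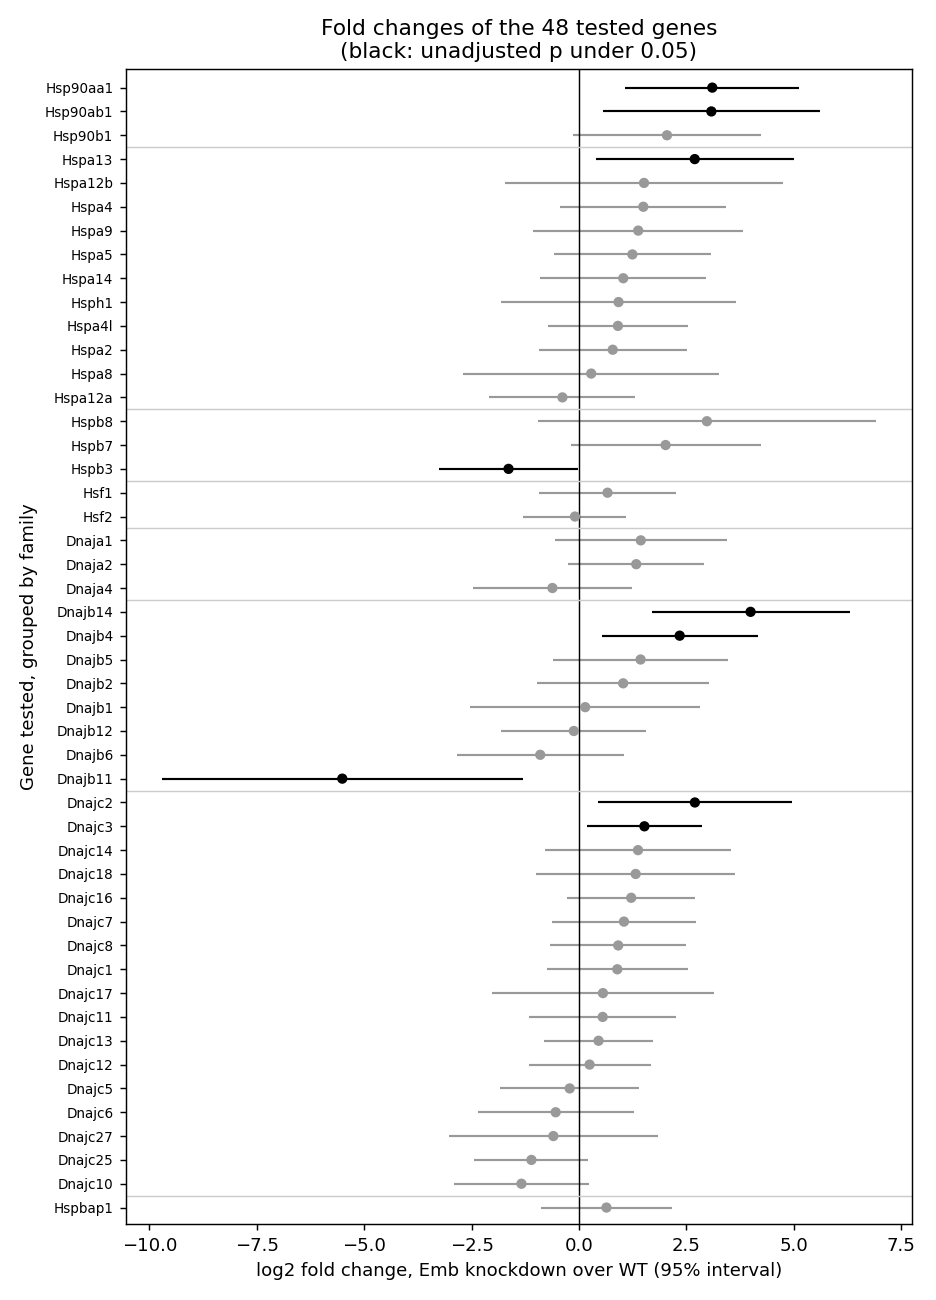
Log2 fold change, Emb knockdown over WT, with its 95% interval for the 48 tested genes, grouped by family. Points right of the line at 0 are higher in Emb knockdown; 36 of the 48 lie there, and black points are the 9 genes with an unadjusted p under 0.05, from -5.51 for Dnajb11 to 3.99 for Dnajb14.

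Among the HSP90 genes, both cytosolic ones were higher in Emb knockdown by unadjusted p alone. Hsp90aa1 (ENSMUSG00000021270, GRCm38 chromosome 12, 110690605 to 110702728, minus strand), the stress-inducible cytosolic HSP90, had 476, 278, 268 and 16.9 CPM in Emb knockdown replicates 1 to 4 and 27.0, 42.5, 25.9 and 25.3 CPM in WT replicates 1 to 4. Emb knockdown replicate 4 lay below every WT library, and the other Emb knockdown libraries lay above all of WT. This gave a log2 fold change of 3.10 ± 0.92 (SE), with a 95% interval of 1.08 to 5.13 and an edgeR adjusted p of 0.295. Hsp90ab1 (ENSMUSG00000023944, chromosome 17, 45567775 to 45573271, minus strand), the constitutive cytosolic HSP90, had 1172, 93.3, 238 and 811 CPM in Emb knockdown and 21.9, 138, 109 and 4.22 CPM in WT. Here Emb knockdown replicate 2 lay within the WT range and the other 3 above it, with a log2 fold change of 3.08 ± 1.15 (95% interval 0.55 to 5.60; adjusted p = 0.318). The library that was low therefore differed between both genes.

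Summed over the 3 HSP90 genes, the level was 1985, 883, 669 and 841 CPM in Emb knockdown and 68.2, 282, 220 and 71.7 CPM in WT. All 4 Emb knockdown libraries were above all 4 WT libraries, and this was so under each of 5 scalings of the libraries, where the mean log2 difference ran from 2.28 to 3.53. Leaving out single libraries moved it between 2.59 and 3.28. The sums of immediate early genes (8840 to 36500 CPM in Emb knockdown, 1550 to 6990 CPM in WT) and of macrophage and fibroblast markers were apart in the same direction, and their part in the HSP90 values was not tested. Of the 50-base stretches in the transcripts of Hsp90aa1, 58.4% also occur in another annotated gene, most of them in the pseudogene Gm12346 (51.5%), which had 143 counts over the Emb knockdown libraries and 30 over WT. The sources used here do not say how the deposited counts dealt with such shared reads, so the level of Hsp90aa1 is uncertain to that extent.

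The estimates for chaperones of the endoplasmic reticulum were mixed: higher in Emb knockdown for Hsp90b1, Hspa5, Dnajc3 and Hspa13, and lower for Dnajb11 and Dnajc10. Chaperones of this compartment are switched on by the unfolded protein response, and the estimates here lay on both sides of 0. The 250 bases before the RefSeq start sites of Hsp90b1, Hspa5 and Dnajc3 hold the 19-base element named ERSE. It is spelled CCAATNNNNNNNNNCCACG on either strand. Of 64 genes of the list with a promoter in the RefSeq table, these 3 (4.69%) held it, against 35 of 27025 genes (0.13%). All 3 had estimates above 0, as did 23 of the 34 tested genes without it. The median log2 fold change was 1.52 with the element and 0.90 without. A match in letters is a description and shows no binding. The promoters of these 3 genes are shown because they share the element and the estimates lay on the same side. They are given on GRCm38.p6 and read 5′ to 3′ towards the gene, with the element in capitals. Hsp90b1 holds it in each orientation. The RefSeq starts used for Hspa5 and Hsp90b1 lie inside the genes as GENCODE draws them. The element of Hspa5 also lies inside the gene, and those of Hsp90b1 lie before it.

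Hspa5, chr2:34771840-34772089, plus strand: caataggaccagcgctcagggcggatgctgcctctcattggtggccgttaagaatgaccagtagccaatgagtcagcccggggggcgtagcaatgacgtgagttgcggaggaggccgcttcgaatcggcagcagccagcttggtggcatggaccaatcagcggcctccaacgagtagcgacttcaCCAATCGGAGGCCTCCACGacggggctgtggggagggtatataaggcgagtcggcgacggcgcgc

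Hsp90b1, chr10:86705445-86705694, minus strand: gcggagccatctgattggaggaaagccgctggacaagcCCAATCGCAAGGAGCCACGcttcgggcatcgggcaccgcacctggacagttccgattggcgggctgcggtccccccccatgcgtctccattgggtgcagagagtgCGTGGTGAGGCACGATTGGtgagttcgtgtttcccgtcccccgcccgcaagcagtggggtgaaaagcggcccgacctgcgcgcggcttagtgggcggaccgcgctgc

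Dnajc3, chr14:118937682-118937931, plus strand: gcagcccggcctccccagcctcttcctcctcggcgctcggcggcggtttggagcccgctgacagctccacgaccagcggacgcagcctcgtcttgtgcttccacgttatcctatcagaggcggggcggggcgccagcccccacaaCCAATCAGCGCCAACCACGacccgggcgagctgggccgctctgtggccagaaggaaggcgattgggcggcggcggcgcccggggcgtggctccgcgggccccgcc

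Hspa5 (ENSMUSG00000026864, chromosome 2, 34771970 to 34777547, plus strand), the HSP70 of the endoplasmic reticulum, also called BiP, had 438, 225, 126 and 73.9 CPM in Emb knockdown and 33.4, 72.4, 51.7 and 208 CPM in WT. WT replicate 4 lay within the Emb knockdown range, and the other WT libraries lay below all of Emb knockdown. Its log2 fold change was 1.24 ± 0.84, with a 95% interval of -0.59 to 3.07 (edgeR adjusted p = 0.538). Hsp90b1 (ENSMUSG00000020048, chromosome 10, 86690209 to 86705509, minus strand), the HSP90 of the same compartment, also called GRP94, had 338, 512, 163 and 13.8 CPM in Emb knockdown and 19.3, 101, 85.2 and 42.2 CPM in WT. Emb knockdown replicate 4 was the lowest of all 8 libraries, as it was for Hsp90aa1, and the log2 fold change was 2.05 ± 0.99 (95% interval -0.13 to 4.22; edgeR adjusted p = 0.397).

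Dnajc3 (ENSMUSG00000022136, chromosome 14, 118937976 to 118981697, plus strand), a DnaJ protein of the endoplasmic reticulum that works with BiP, also called p58IPK, had the smallest standard error of the 7 higher genes. It had 113, 88.0, 55.7 and 52.6 CPM in Emb knockdown and 41.2, 14.9, 16.7 and 35.1 CPM in WT. All Emb knockdown libraries lay above all WT libraries, although the lowest Emb knockdown value, 52.6, was close to the highest WT value, 41.2. With library totals alone the genotypes overlapped. Dnajc3 had a log2 fold change of 1.52 ± 0.62 with a 95% interval of 0.18 to 2.87 (edgeR adjusted p = 0.329) and the estimate stayed between 1.31 and 1.88 without any 1 library.

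Hspa13 (ENSMUSG00000032932, chromosome 16, 75745431 to 75767104, minus strand), an HSP70-like protein found in microsomes, had 34.0, 426, 36.2 and 28.2 CPM in Emb knockdown and 12.9, 6.90, 20.5 and 40.8 CPM in WT. Emb knockdown replicate 2 held most of it, and the other Emb knockdown libraries overlapped WT. Its log2 fold change was 2.69 ± 1.05 (edgeR adjusted p = 0.322) and 0.72 without that library.

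Dnajb11 (ENSMUSG00000004460, chromosome 16, 22857845 to 22879634, plus strand), a DnaJ partner of BiP, also called ERdj3, had 10.7, 31.3, 43.8 and 14.4 CPM in Emb knockdown and 6.43, 8.05, 80.6 and 4492 CPM in WT. WT replicate 4 alone, with 3196 counts, set the estimate: the log2 fold change was -5.51 ± 1.92 (edgeR adjusted p = 0.311) with it and -0.29 without it. Dnajb9, another DnaJ partner of BiP, was below the filter, with 6, 5, 0 and 6 counts in Emb knockdown and 0, 2, 16 and 1 in WT. Neither Dnajb11 nor Dnajb9 thus had a difference between the genotypes that more than 1 library carried. Dnajc10, a disulfide reductase of the same compartment with a J domain, also called ERdj5, had 13.3, 4.77, 5.40 and 12.5 CPM in Emb knockdown and 51.5, 16.1, 12.9 and 11.2 CPM in WT (-1.34 ± 0.71 on the log2 scale, edgeR adjusted p = 0.433). Of 9 other folding genes of the endoplasmic reticulum in a wider list, 8 were tested; 5 had estimates above 0 and 3 below (Pdia6 at -1.002, Canx at -0.34 and Hyou1 at -0.19), and 0 had an unadjusted p under 0.05.

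The cytosolic HSP70 system varied within both genotypes. Hspa8 (chromosome 9, 40800984 to 40810087), the constitutive HSP70 that also uncoats clathrin vesicles, had 49.3, 97.0, 3.78 and 214 CPM in Emb knockdown and 5.15, 17.2, 272 and 2.81 CPM in WT. The range in each genotype spanned nearly all of the other, and the log2 fold change was 0.28 ± 1.36 (95% interval -2.69 to 3.26; edgeR adjusted p = 0.959). Its estimate was 3.45 without WT replicate 3 and -0.56 without Emb knockdown replicate 4, and it was -0.66 with library totals alone. Of its 50-base stretches, 51.0% occur in another gene.

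Hsph1 (chromosome 5, 149614287 to 149636376), the HSP110 that exchanges the nucleotide of HSP70, had 314, 140.5, 2.70 and 111 CPM in Emb knockdown and 52.7, 2.30, 213 and 30.9 CPM in WT. Its log2 fold change was 0.92 ± 1.25 (edgeR adjusted p = 0.793), -0.10 with library totals alone, 2.37 without WT replicate 3 and 0.16 without Emb knockdown replicate 1. Dnajb1, the main heat-inducible DnaJ protein of the cytosol, had 48.6, 13.2, 28.6 and 7.52 CPM in Emb knockdown and 2.57, 2.30, 81.4 and 0 CPM in WT (0.14 ± 1.22 on the log2 scale, edgeR adjusted p = 0.976). WT replicate 3 was the highest WT library for Hspa8, Hsph1 and Dnajb1 alike. Without it the estimate of Dnajb1 was 3.87; with library totals alone it was -0.79.

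The heat-inducible pair Hspa1a and Hspa1b, which lie side by side on chromosome 17, were below the filter. Hspa1a (34969190 to 34972156, minus strand) had 1, 19, 90 and 17 counts in Emb knockdown and 2, 1, 0 and 0 in WT, a ratio of 22.8 after division by the scaled library sizes, with an exact 95% counting interval of 7.61 to 112. Emb knockdown replicate 3 held most of the counts, and replicate 1 had no more than WT. Hspa1b (34956436 to 34959238, minus strand) had 6, 13, 13 and 98 counts in Emb knockdown and 3, 2, 18 and 5 in WT, with most of them in Emb knockdown replicate 4. The transcripts of the pair share 58.7% of the 50-base stretches of Hspa1a and 62.1% of those of Hspa1b, so how the counts divide between them is uncertain. Their promoters were identical at 247 of 250 bases. The counting interval covers counting error only, not the spread between libraries. With no filter, edgeR called Hspa1a (log2 fold change 4.41, adjusted p = 0.0238), where it called 1.88% of 48530 genes.

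Other HSP70 genes that passed the filter had estimates above 0 except Hspa12a (-0.39). Hspa9, the HSP70 of mitochondria, had 72.6, 2.65, 11.9 and 17.5 CPM in Emb knockdown and 0, 19.5, 16.7 and 2.81 CPM in WT. Both genotypes spanned low and high values, and its log2 fold change of 1.38 ± 1.11 (edgeR adjusted p = 0.615) was 0.06 without Emb knockdown replicate 1.

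Of the 8 small HSP genes 3 were tested. Hspb3 (ENSMUSG00000051456, chromosome 13, 113662896 to 113663676, minus strand), known from muscle, had 6.00, 2.65, 3.78 and 8.77 CPM in Emb knockdown and 33.4, 8.05, 6.09 and 19.7 CPM in WT. WT replicates 2 and 3 lay within the Emb knockdown range, and the log2 fold change was -1.64 ± 0.74 (95% interval -3.27 to -0.02; edgeR adjusted p = 0.372). It was -0.998 without WT replicate 1. Hspb8, which works with Bag3 in clearing damaged proteins, had 604, 45.1, 0.540 and 9.40 CPM in Emb knockdown and 37.3, 0, 0.761 and 46.4 CPM in WT. Its log2 fold change of 2.97 ± 1.80 (edgeR adjusted p = 0.492) rested on Emb knockdown replicate 1 and was -0.12 without it.

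Hspb7 had a log2 fold change of 2.01 ± 1.01 (edgeR adjusted p = 0.411). Hspb1, the widely expressed stress-induced small HSP, had 1, 0, 3 and 0 counts in Emb knockdown and 6, 5, 8 and 0 in WT, although the Emb knockdown libraries were the deeper ones. Hspb9 had 30 counts over the Emb knockdown libraries and 1 over WT, a ratio of 16.1 with a counting interval of 2.68 to 658. Such low counts leave the small HSPs below the filter poorly measured. Among those tested, Hspb7 had 82 counts over the Emb knockdown libraries and 12 over WT, and Hspb3 had 35 and 55.

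The genes of the mitochondrial chaperonin were counted few times in both genotypes. Hspd1, which encodes HSP60, had 4, 19, 6 and 14 counts in Emb knockdown and 7, 6, 6 and 4 in WT. Hspe1, which encodes its lid HSP10, had 2, 32, 2 and 4 counts in Emb knockdown and 1, 4, 1 and 4 in WT. Neither passed the filter, so neither was tested, and the counts of the genotypes overlapped.

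The heat shock factors were low, and no difference between the genotypes was detected at this depth. Hsf1, the main regulator of the heat shock response, had 14.0, 14.8, 10.3 and 14.4 CPM in Emb knockdown and 2.57, 6.90, 3.80 and 21.1 CPM in WT, with a log2 fold change of 0.66 ± 0.72 (95% interval -0.92 to 2.25; edgeR adjusted p = 0.728). WT replicate 4 was the highest of all 8 libraries and the other WT libraries lay below all of Emb knockdown; without WT replicate 4 the estimate was 1.65. Hsf2, a related factor active in development, had 14.7, 24.9, 18.9 and 20.7 CPM in Emb knockdown and 14.1, 19.5, 17.5 and 33.7 CPM in WT (log2 fold change -0.10 ± 0.55, 95% interval -1.29 to 1.10, edgeR adjusted p = 0.964). Its interval was among the narrowest here, and its sign changed when the libraries were scaled to the receptor genes (0.50).

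Heat shock factors bind repeats of GAA in alternating orientation. A short form of this element, named HSE, was searched as GAANNTTC and TTCNNGAA in the 250 bases before the RefSeq start. It was in 15 of 64 promoters (23.4%), against 3932 of 27025 genes (14.5%). Of the genes that hold it, 8 were tested, 3 of them with an estimate above 0 and a median log2 fold change of -0.61. Of those without it, 29 were tested, 23 of them above 0, with a median of 1.03. No match says only that these letters are not in this window. Hspa1a and Hsph1 are shown as classical heat shock targets. Dnajb4 is shown as the tested gene with the element and an unadjusted edgeR p under 0.05 in the direction of Emb knockdown. All are on GRCm38.p6 with the element in capitals. The RefSeq starts used for Hsph1 and Dnajb4 lie inside the genes as GENCODE draws them, as do the elements shown.

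Hspa1a, chr17:34972157-34972406, minus strand: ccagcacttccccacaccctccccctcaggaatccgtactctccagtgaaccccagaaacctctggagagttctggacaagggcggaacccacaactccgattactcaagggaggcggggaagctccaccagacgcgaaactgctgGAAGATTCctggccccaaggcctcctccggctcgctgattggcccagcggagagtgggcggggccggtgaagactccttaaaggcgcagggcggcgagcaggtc

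Hsph1, chr5:149636337-149636586, minus strand: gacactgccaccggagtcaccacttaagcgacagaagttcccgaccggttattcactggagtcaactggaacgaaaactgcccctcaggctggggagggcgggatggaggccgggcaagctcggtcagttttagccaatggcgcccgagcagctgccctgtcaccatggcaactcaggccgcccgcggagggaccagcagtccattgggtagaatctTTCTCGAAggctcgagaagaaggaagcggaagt

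Dnajb4, chr3:152193846-152194095, minus strand: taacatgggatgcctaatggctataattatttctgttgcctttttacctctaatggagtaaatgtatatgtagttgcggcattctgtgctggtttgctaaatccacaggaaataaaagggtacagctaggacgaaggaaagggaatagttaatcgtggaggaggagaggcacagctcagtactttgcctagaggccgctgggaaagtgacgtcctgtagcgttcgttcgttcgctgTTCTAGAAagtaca

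Among the DnaJ genes of the cytosol and the membranes of the endoplasmic reticulum, the largest estimate was that of Dnajb14 (ENSMUSG00000074212, chromosome 3, 137867675 to 137916557, plus strand), a DnaJ protein anchored in that membrane with its J domain towards the cytosol. It had 537, 287, 29.7 and 950 CPM in Emb knockdown and 23.2, 21.8, 54.8 and 12.6 CPM in WT. In 3 of 4 Emb knockdown libraries it lay far above WT, and replicate 3 lay within the WT range. Dnajb14 had a log2 fold change of 3.99 ± 1.05, with a 95% interval of 1.69 to 6.30 (edgeR adjusted p = 0.294), and between 3.34 and 4.59 without any 1 library. It lay at 1.53 to 57.1 times the receptor background in Emb knockdown and at 0.535 to 2.28 times in WT, where it was thus close to that background.

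Dnajb4 (ENSMUSG00000028035, chromosome 3, 152178511 to 152210302, minus strand), a cytosolic relative of Dnajb1, had 219, 47.2, 21.6 and 43.2 CPM in Emb knockdown and 27.0, 10.3, 8.37 and 19.7 CPM in WT. Emb knockdown replicate 3 lay within the WT range and the others above it. Its log2 fold change was 2.34 ± 0.83, with a 95% interval of 0.52 to 4.16 (edgeR adjusted p = 0.311), and 1.23 without Emb knockdown replicate 1. Dnajb6, which keeps polyglutamine proteins from aggregating, had an estimate in the other direction, with 17.3, 1.06, 17.8 and 3.13 CPM in Emb knockdown and 15.4, 31.0, 5.33 and 22.5 CPM in WT (log2 fold change -0.90 ± 0.89, edgeR adjusted p = 0.691).

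Dnaja1 and Dnaja2, the general DnaJ proteins of the cytosol that are closest to the bacterial one, had log2 fold changes of 1.44 ± 0.91 and 1.33 ± 0.72 (edgeR adjusted p = 0.514 and 0.444). Dnaja1 had 211, 22.8, 33.5 and 14.4 CPM in Emb knockdown and 29.6, 26.4, 7.61 and 40.8 CPM in WT, and its estimate was -0.11 without Emb knockdown replicate 1. Dnaja2 had 18.6, 12.7, 62.1 and 99.0 CPM in Emb knockdown and 27.0, 20.7, 15.98 and 12.6 CPM in WT, with different libraries high.

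In the DNAJC group 12 of the 17 tested genes had estimates above 0. Dnajc2 (ENSMUSG00000029014, chromosome 5, 21757267 to 21785251, minus strand), which works on ribosomes with an HSP70 partner, had 62.0, 11.1, 8.65 and 13.2 CPM in Emb knockdown and 3.86, 8.05, 0 and 2.81 CPM in WT. The genotypes did not overlap, though 8.65 and 8.05 CPM, from 16 and 7 counts, nearly meet. With library totals alone they overlapped. Dnajc2 had a log2 fold change of 2.70 ± 1.03, with a 95% interval of 0.44 to 4.96 (edgeR adjusted p = 0.320). Dnajc25 (ENSMUSG00000070972, chromosome 4, 58995062 to 59025573, plus strand) was the one gene of the list below WT in every library, with 46.6, 56.2, 89.7 and 69.5 CPM in Emb knockdown and 198, 124, 95.9 and 148 CPM in WT. Its log2 fold change was -1.11 ± 0.61 (95% interval -2.43 to 0.22; edgeR adjusted p = 0.447). Against the receptor background it lay at 12.2 to 16.03 times in Emb knockdown and 13.8 to 25.6 times in WT, which overlap, so the separation depended on the scaling.

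Dnajc5, which encodes the cysteine string protein of synaptic vesicles, had 28.7, 8.48, 32.4 and 21.9 CPM in Emb knockdown and 43.7, 11.5, 44.9 and 5.62 CPM in WT. The genotypes overlapped throughout (log2 fold change -0.22 ± 0.74, 95% interval -1.83 to 1.40, edgeR adjusted p = 0.935), and the sign changed to 0.42 when scaled to the receptor genes. Dnajc7, which carries clients between HSP70 and HSP90, was the DNAJC gene with the highest mean CPM in Emb knockdown, with 227, 85.4, 221 and 32.6 CPM in Emb knockdown and 103, 27.6, 69.2 and 74.5 CPM in WT (log2 fold change 1.05 ± 0.77, edgeR adjusted p = 0.574).

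The 33 genes below the filter had 3 to 130 counts each over the Emb knockdown libraries and 0 to 55 over WT, with medians of 28 and 19. Their mean CPM was higher in Emb knockdown in 16 of the 33. Hspb2 had 7 counts in Emb knockdown and 0 in WT, at least 1.25-fold higher against a floor of 3 counts over the group, and Dnajc5b had 9 and 0, at least 1.61-fold higher. The 15 pseudogenes left out by name had 101 counts over the Emb knockdown libraries and 37 over WT.

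Single libraries carried much of the signal. In 9 of the 48 tested genes, 18.8%, 1 library held most of the summed CPM of all 8, against 10.9% of all genes tested, and these were Dnaja1, Dnajb4, Dnajb11, Dnajc2, Dnajc18, Hspa9, Hspa12b, Hspa13 and Hspb8. Emb knockdown replicate 1 was the highest library in 17 of the 48, 35.4%, against 17.1% of all genes. The median coefficient of variation within Emb knockdown was 0.726 over the 48 genes and 0.622 over all genes, and within WT 0.792 and 0.689.

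Summed over all 81 genes, the level was 5966, 3124, 2391 and 3380 CPM in Emb knockdown and 1265, 1286, 1879 and 5883 CPM in WT. WT replicate 4, at 5883 CPM, was almost as high as the highest Emb knockdown library, and 4492 CPM of that was Dnajb11. Without Dnajb11, a step chosen after its values were seen, the sums were 5955, 3093, 2347 and 3366 CPM in Emb knockdown and 1258, 1278, 1798 and 1391 CPM in WT, and the genotypes no longer overlapped. The Rn18s-rs5 share, 36.5% in Emb knockdown and 8.72% in WT, separated the same libraries, and its part in these sums was not tested. The HSP70 and HSP110 sum was 1067, 982, 484 and 608 CPM in Emb knockdown and 149, 216, 720 and 334.5 CPM in WT, where WT replicate 3 lay within the Emb knockdown range.

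**Figure D3:**
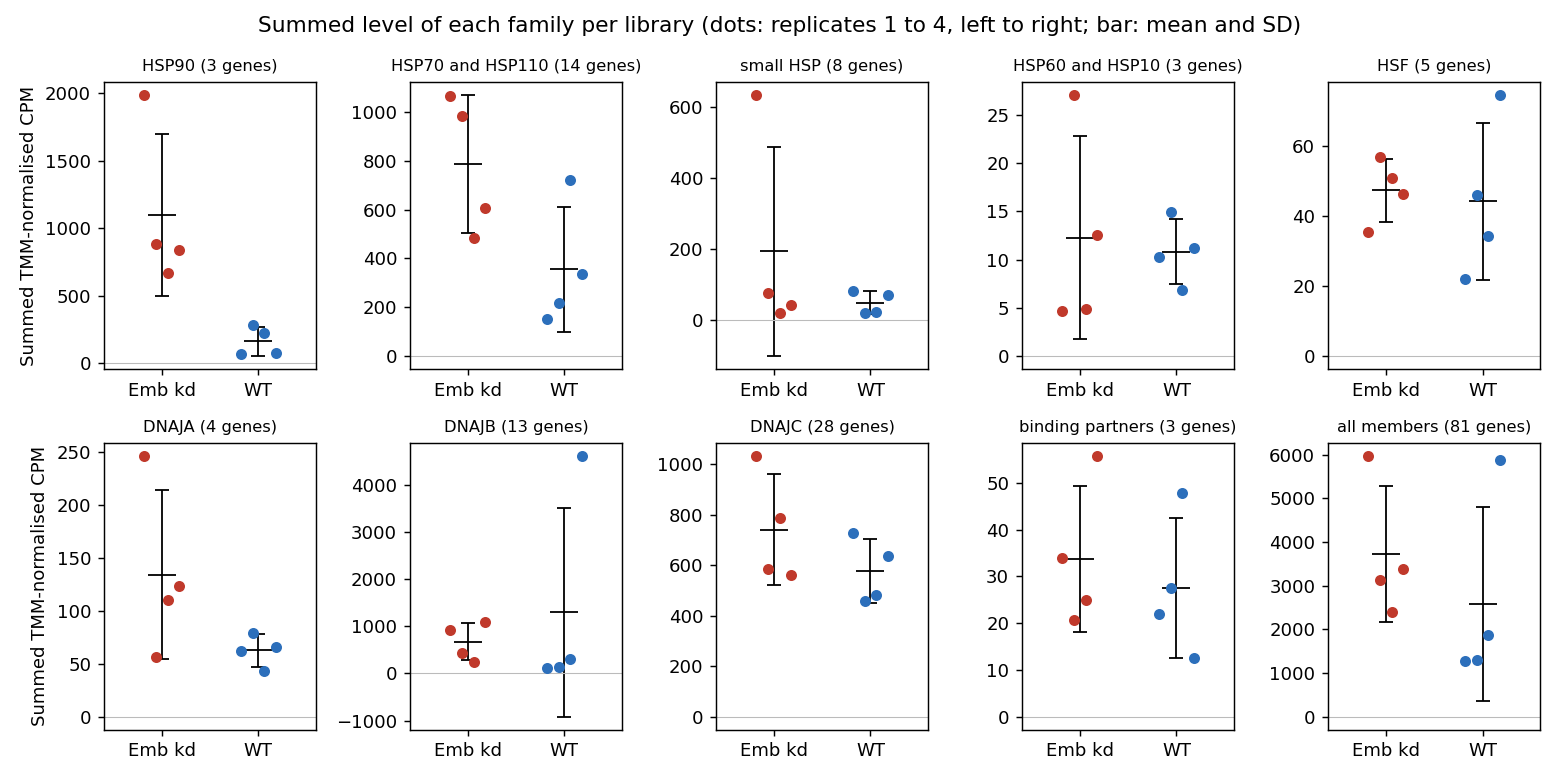
Summed TMM-normalised CPM of each family in each library, with the scale starting anew in each panel; dots are replicates 1 to 4 from left to right, Emb knockdown left of WT, and the bar is the mean with its SD (n = 4). The HSP90 sums run from 669 to 1985 CPM in Emb knockdown and from 68.2 to 282 CPM in WT without overlap, while the DNAJB panel shows WT replicate 4 at 4604 CPM.

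The size of every difference depended on how the libraries were scaled. Over all genes tested the median log2 fold change was 0.04 with TMM factors, -0.59 with library totals alone, -0.07 with totals outside Rn18s-rs5 and 0.64 when scaled to the receptor genes. The median of the 48 genes moved with it, to 0.27, 0.78 and 1.63 under the other 3. Its distance above the median of all genes stayed at 0.846 to 0.989 across these scalings. A scaling shifts all genes by nearly the same amount, so this steady distance is no test of the lean. Leaving out Emb knockdown replicate 1 gave a median of 0.55, against -0.03 for all genes, and leaving out WT replicate 1 gave 0.62, against 0.08. The distance was then 0.58 and 0.534. It was 0.635 with no filter and 1.16, its largest value, without Emb knockdown replicate 2.

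**Figure D4:**
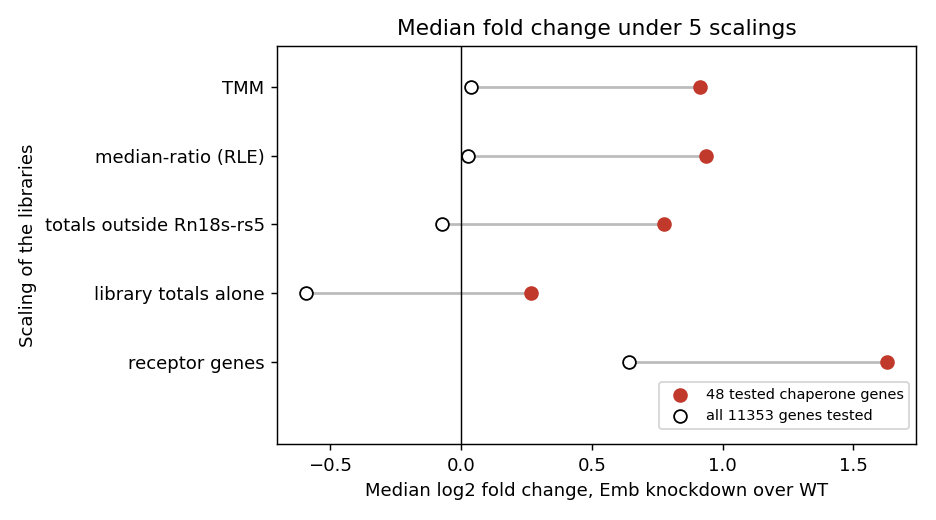
Median log2 fold change, Emb knockdown over WT, of the 48 tested chaperone genes (filled) and of all 11353 genes tested (open) under 5 scalings of the libraries. Both points shift together, from -0.59 to 0.64 for all genes and from 0.27 to 1.63 for the chaperone genes. The gap between them stays between 0.846 and 0.989, because a scaling shifts all genes by nearly the same amount.

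A wider list of 57 chaperones and co-chaperones with other names was read from the same fit. Of these, 40 were tested, 0 passed the adjusted p, 26 had estimates above 0, and the median log2 fold change was 0.70. By unadjusted edgeR p under 0.05, 5 had more in Emb knockdown, against 8.64% of all genes, and 2 less, against 4.64%. The genotypes did not overlap in 2 of the 40 that were higher, against 4.03% of all genes, and in 1 that was lower, against 4.25%. Cdc37, which brings kinases to HSP90, had 17.3, 11.1, 19.5 and 47.0 CPM in Emb knockdown and 3.86, 4.60, 7.61 and 2.81 CPM in WT, without overlap (log2 fold change 2.27 ± 0.70, edgeR adjusted p = 0.295). Cct5, a subunit of the cytosolic chaperonin, had 296.5, 101, 268 and 161 CPM in Emb knockdown and 96.5, 26.4, 19.0 and 22.5 CPM in WT, also without overlap (2.33 ± 0.79, adjusted p = 0.308).

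The chaperonin subunits Cct7 and Cct6a had log2 fold changes of 2.25 ± 0.79 and 2.15 ± 0.84. Clpb, a mitochondrial disaggregase, had 3760 CPM in Emb knockdown replicate 1 and 10.7 to 16.2 CPM in the other Emb knockdown libraries, against 1.29 to 12.6 CPM in WT, so its log2 fold change of 6.91 ± 2.09 rested on 1 library. In the other direction, Ptges3, the HSP90 co-chaperone p23, had 14.7, 19.1, 4.32 and 4.39 CPM in Emb knockdown and 115, 14.9, 15.2 and 54.8 CPM in WT (-2.22 ± 0.84, edgeR adjusted p = 0.320). Grpel2, a nucleotide exchange factor of mitochondrial HSP70, had 18.7, 28.6, 15.7 and 16.3 CPM in Emb knockdown and 30.9, 63.2, 34.2 and 66.0 CPM in WT, without overlap (-1.29 ± 0.56, edgeR adjusted p = 0.352). The partners of HSP90 thus lay on both sides, with Cdc37 higher and Ptges3 lower.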

How the data were processed

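Per the labels, a Smart-seq kit, which amplifies the RNA of few cells, was used on sorted colon cells of 4 Emb knockdown and 4 WT mice. The authors deposited 1 table of raw counts per gene. Per the submitters' processing notes, cutadapt and mm10 were used; for the aligner, counter, strand setting and annotation the sources used here give no name. Reads of overlapping or antisense genes (for Dnaja4, 44.1% of its exonic bases overlap Wdr61) may be split in ways the table does not show. Total counts and their range stand beside the results; amplified reads are not independent molecules.

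Symbols came from the table; coordinates and exonic lengths came from GENCODE M21 (GRCm38), and promoters from RefSeq (GRCm38.p6), where 64 of the 81 genes matched. The test was edgeR 4.0.16 (R 4.3.3) on the counts: filterByExpr (minimum count 10, minimum total 15), TMM factors, robust quasi-likelihood fit with genotype as the only term, and Benjamini-Hochberg adjustment over all 11353 genes tested, threshold 0.05. CPM are TMM-normalised. For single genes, exact two-sided permutation tests used all 70 assignments of the libraries. The result of 1 marker list is not reported here. Alternatives were DESeq2 1.42.0, limma 3.58.1 voom, other scalings and filters, a replicate block and leaving out each library. The genes and lists were chosen with earlier results of these data known. Named are 20 genes set by role, every tested gene with an unadjusted p under 0.05 or without overlap, and the 2 of each family with the highest mean CPM; other genes named were chosen after their values were seen.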

Additional observations from a re-analysis of the deposited data

Results flagged for a closer look

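In a group of 4 libraries, 1 library was set apart where its gap to the nearest of the others, as a share of the whole range, passed Dixon's 95% critical value. Over 80 groups (each named gene and each family sum in each genotype) this happened 15 times. Chance flags about 1 in 20 groups only where the values are normally distributed. CPM are skewed and the sums contain flagged genes, so the 15 cannot be read against that rate.

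Emb knockdown replicate 1 stood apart with 211 CPM of Dnaja1 (14.4 to 33.5 in the other Emb knockdown libraries), 219 CPM of Dnajb4 (21.6 to 47.2), 62.0 CPM of Dnajc2 (8.65 to 13.2) and 604 CPM of Hspb8 (0.540 to 45.1). It also stood apart in the summed CPM of the HSP90 genes, 1990, and of the small HSP genes, 633. Emb knockdown replicate 2 stood apart with 426 CPM of Hspa13 (28.2 to 36.2) and 17.0 CPM of Hspe1 (1.08 to 2.51), and Emb knockdown replicate 4 with 61.4 CPM of Hspa1b (4.00 to 7.02).

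In WT, replicate 4 stood apart with 4490 CPM of Dnajb11 (6.43 to 80.6 in the other WT libraries), and through it in the summed CPM of the DNAJB genes, 4600, and of all 81 genes, 5880. WT replicate 3 stood apart with 81.4 CPM of Dnajb1 (0 to 2.57) and 272 CPM of Hspa8 (2.81 to 17.2). WT replicate 2 stood apart with 42.5 CPM of Hsp90aa1, where the other WT libraries lay closely at 25.3 to 27.0.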

How the results depend on the processing

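Depth limits the WT values most, where many genes had few counts. Genes past the adjusted p numbered 1 with totals outside Rn18s-rs5, 910 with no filter and 683 by DESeq2, and among the chaperone genes 5 with no filter and 5 by DESeq2. With no filter these were Dnajb11 (-5.23), Dnajb14 (4.20), Hsp90aa1 (3.37), Hsp90ab1 (3.30) and Hspa1a. Chaperone genes at an unadjusted p under 0.05 numbered 2 higher and 4 lower in Emb knockdown with library totals alone (over all genes 3.69% and 13.5%), 13 and 1 when scaled to the receptor genes (18.1% and 1.24%) and 15 and 1 with no filter (7.06% and 4.19%); 1 was lower with a filter blind to genotype (6.19%) and 1 by voom (4.39%). Same-numbered libraries correlated at 0.011 to 0.034 across the genotypes, and libraries of different number at -0.040 to 0.018. Values this small cannot say whether the numbers pair the libraries. With a replicate block 6 were higher (5.54% of all genes), 0 lower (2.55%) and 0 passed the adjusted p. The median log2 fold change was 0.27 with library totals alone and 1.63 with the receptor genes. With the receptor genes 9 genes did not overlap, all higher, against 9.78% of all genes. With library totals alone 3 did not overlap, 0 of them higher (1.47% of all genes) and 3 lower (9.55%).

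Of 24 named tested genes 17 kept their sign under every setting and left-out library that gave a value. Signs changed with library totals alone for Dnajb1 (-0.79), Hspa8 (-0.66) and Hsph1 (-0.10), and for the log2 difference of the summed HSF (-0.42), DNAJB (-0.10), DNAJC (-0.29) and binding-partner genes (-0.28). They changed with totals outside Rn18s-rs5 for Dnajb1 (-0.29) and Hspa8 (-0.0692), with the receptor genes for Dnajc5 (0.42), Hsf2 (0.50) and the HSP60 and HSP10 sum (0.46), with no filter for Dnajc5 (0.0195) and Hsf2 (0.15) and with the block for Dnajc5 (0.0142). The cause was not tested. Leaving out Dnajb11, chosen after seeing the data, gave the sum of all genes a log2 difference of 1.29, against 0.77.

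Without some single libraries or with the filter blind to genotype, a few named genes (Dnajb1, Dnajc2, Hsf1 and Hspb3) fell below the filter and gave no value. Without single libraries the counts were 5 to 11 higher, 1 to 2 lower and 3 to 7 without overlap, and the median ran from 0.55 to 1.15. Over all genes tested, 6.77% to 9.77% were higher and 3.28% to 4.76% lower. These fits tested 37 to 62 genes of the list, so their counts cannot be compared directly. For the lack of overlap no share of all genes is given. Log2 fold changes ran from -0.11 to 1.84 for Dnaja1, -0.17 to 3.87 for Dnajb1, -0.48 to 0.22 for Dnajc5, -0.21 to 0.28 for Hsf2, -0.56 to 3.45 for Hspa8 and -0.12 to 3.82 for Hspb8. Differences of sums ran from -0.00407 to 1.64 (small HSP), -0.67 to 0.18 (HSP60 and HSP10), -0.0707 to 0.52 (HSF) and -0.0298 to 1.73 (DNAJB).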
